A study of Mus musculus with 6 samples.

Results

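A set of 10 genes that help set the pace of glycolysis were followed across colon tumours with and without Trim21: Slc2a1, Hk1, Hk2, Pfkl, Pfkm, Pfkp, Pfkfb2, Pfkfb3, Pfkfb4 and Ldha. They were chosen by symbol, with earlier results of the same comparison known, and all 10 were found among the 26214 features of the count tables and passed the filter on low counts. Pfkfb3 entered because of its difference between knockout and wild type. Its values in that comparison, and those of the other 9 genes, are therefore given as a description with no test.

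The tumours came from mice treated with AOM/DSS, the carcinogen azoxymethane combined with the colitis-inducing agent dextran sulfate sodium, which models cancer arising in an inflamed colon. Of the 6 libraries, 3 came from Trim21 -/- mice (knockout) and 3 from Trim21 +/+ mice (wild type), and both genotypes received AOM/DSS, so no untreated colon is compared here. Each library is ribosome-depleted total RNA of bulk tumour tissue, and the labels call the libraries biological replicates. Strain, age, the way the Trim21 allele was made, and whether tumours were pooled are not stated in the labels, so a p-value measures the spread between these libraries.

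Glycolysis starts when glucose enters the cell, and Slc2a1 encodes a transporter that carries it in. Hexokinases trap it by phosphorylation, and phosphofructokinase, built from liver, muscle and platelet type subunits, commits it to breakdown. The Pfkfb enzymes make and remove a sugar bisphosphate that is the strongest activator of phosphofructokinase, with Pfkfb3 as the form that mostly makes it. Lactate dehydrogenase A, encoded by Ldha, turns pyruvate into lactate, and tumours and inflamed tissue commonly run the whole route at a high rate. In human tumour cells TRIM21 has been described as a ligase that marks the platelet type phosphofructokinase protein for degradation, a step that RNA counts do not measure.

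The promoter windows of Pfkfb3 and Ldha are shown because both genes are textbook targets of hypoxia-inducible factor, whose binding element has ACGTG as a common core. RefSeq (GRCm38.p6) lists 2 starts of Pfkfb3, and the 250 bases before the upstream start lie at chr2:11553930-11554179 on the minus strand and those before the downstream start at chr2:11502091-11502340. The window before the first start of Ldha, the member with the highest level per length, lies at chr7:46845554-46845803 on the plus strand. Capitals mark ACGTG on either strand, so a run of 6 capitals is the palindrome CACGTG, which holds ACGTG on both strands.
Pfkfb3 upstream start: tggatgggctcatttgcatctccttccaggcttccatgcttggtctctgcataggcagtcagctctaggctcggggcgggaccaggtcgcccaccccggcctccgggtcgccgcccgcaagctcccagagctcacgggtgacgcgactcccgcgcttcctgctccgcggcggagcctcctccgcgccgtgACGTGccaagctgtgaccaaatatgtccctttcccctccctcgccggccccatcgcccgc
Pfkfb3 downstream start: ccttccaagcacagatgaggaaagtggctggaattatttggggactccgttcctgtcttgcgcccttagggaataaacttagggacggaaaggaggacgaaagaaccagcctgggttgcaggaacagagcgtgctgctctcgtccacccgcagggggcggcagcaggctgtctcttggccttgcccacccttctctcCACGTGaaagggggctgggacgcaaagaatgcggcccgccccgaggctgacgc
Ldha first start: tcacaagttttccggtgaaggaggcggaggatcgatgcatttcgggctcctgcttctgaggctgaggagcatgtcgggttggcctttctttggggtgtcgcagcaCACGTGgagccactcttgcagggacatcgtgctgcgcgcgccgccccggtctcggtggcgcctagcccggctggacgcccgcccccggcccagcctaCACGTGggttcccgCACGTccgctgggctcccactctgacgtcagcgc
Both Pfkfb3 windows hold 1 such run, which begins 60 bases before the upstream start and 53 bases before the downstream start. The Ldha window holds 3 runs, beginning 145, 48 and 34 bases before the start. Across the 10 genes, 9 of 18 windows hold ACGTG, against 16.6% of the 32817 windows of this length in the RefSeq table. By gene, 6 of the 10 hold it in a window, against 18.5% of 26994 genes. Hk1, Pfkl, Pfkp and Pfkfb4 have no match in their windows. CACGTG occurs in 4 of the 18 windows, against 6.02% of all windows. These are matches of letters only. Some windows of the same gene overlap and the genes were chosen by symbol, so nothing is read from these shares.

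The depth behind the values was 17937821 to 19987295 counts in the knockout libraries and 27085599 to 29742757 counts in the wild-type libraries. Trim21 itself measured 12.1 to 18.9 CPM (counts scaled to library size) in the knockout and 19.5 to 29.8 CPM in the wild type, lower without overlap but not absent; where in the gene these reads lie is not recorded in the tables. Epithelial markers (Epcam, Cdh1, Krt8, Krt18, Krt20, Vil1 and Cdx2) were present in every library, with a summed level of 5865 to 6017 CPM in the knockout and 5703 to 6243 CPM in the wild type. Wild-type replicate 3 stood apart in skeletal muscle genes: the summed level of Ckm, Acta1, Myh4, Tnnt3 and Mb was 2636 CPM there against 2.90 to 12.3 CPM in the other 5 libraries, and Mb had no count in knockout replicate 3. In that library 47 of 16281 tested features lay more than 8 times above the next highest library, against 0 or 1 feature in each of the other 5. Values for the glycolysis genes are therefore also given without it.

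Pfkfb3 had lower values in the knockout than in the wild type, with no overlap. The gene lies on chromosome 2 from 11471433 to 11554077 (mm10, minus strand) and is protein-coding. Its level was 47.8, 42.8 and 45.5 CPM in knockout replicates 1 to 3 and 63.4, 68.8 and 72.3 CPM in wild-type replicates 1 to 3. All knockout libraries were below all wild-type libraries, and the spread inside each genotype was small. Pfkfb3 was chosen on this comparison, which favours both, so neither is read as support. The means were 45.4 ± 2.49 CPM and 68.2 ± 4.50 CPM (SD, n = 3 each), and the fitted log2 fold change (knockout minus wild type) was −0.59 ± 0.10 (SE), a 1.5-fold lower level. Without wild-type replicate 3 the log2 fold change was −0.54 ± 0.11 (SE), so the difference was of nearly the same size without the library rich in muscle genes. In bulk tissue, fewer cells that express a gene and less RNA per cell cannot be told apart.

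**Figure D1:**
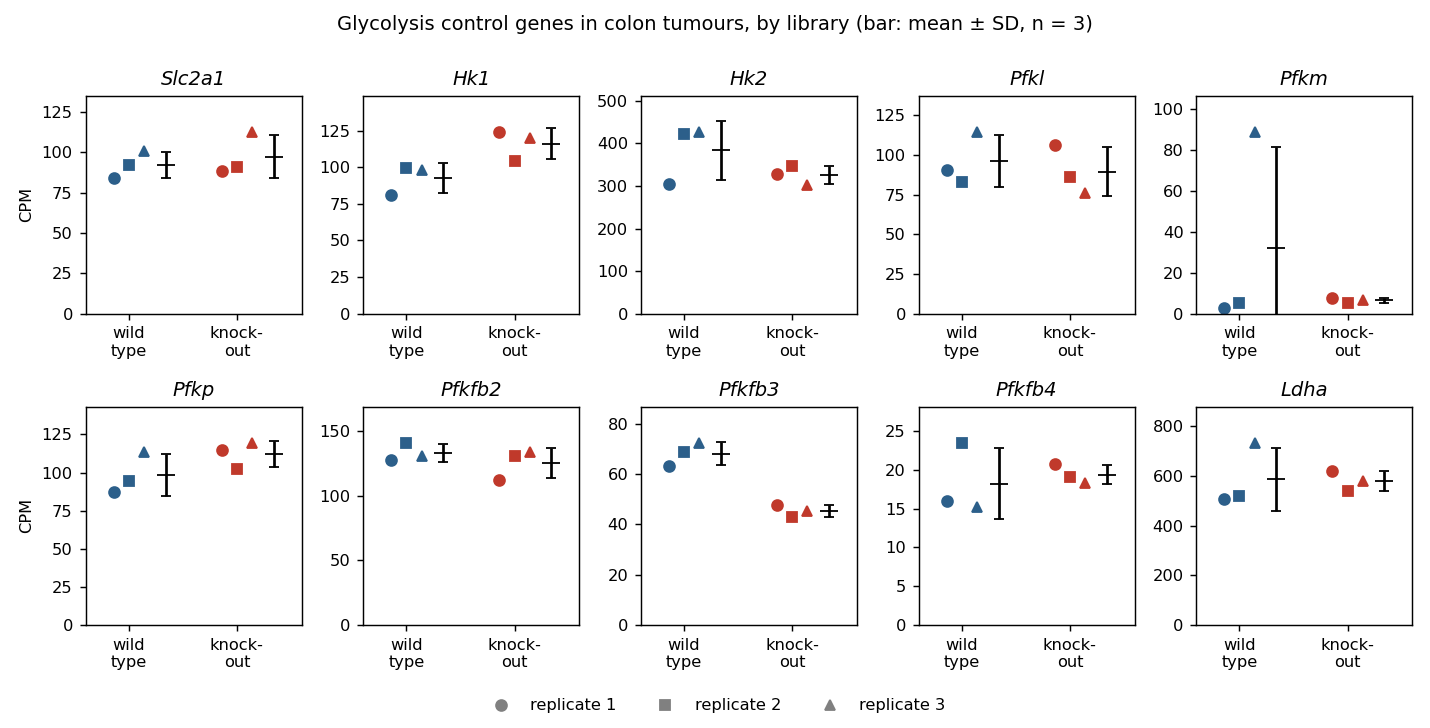
Level in CPM of each of the 10 genes in each library, with wild type in blue, knockout in red, one marker shape per replicate, and the mean ± SD (n = 3) in black. The 3 Pfkfb3 points of the knockout (42.8 to 47.8 CPM) lie below those of the wild type (63.4 to 72.3 CPM), and wild-type replicate 3 stands alone for Pfkm at 88.6 CPM, where the SD bar is cut at 0.

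Across all 16281 tested features, edgeR's quasi-likelihood test called 0 (0%) at an adjusted p under 0.05. The count of 0 of the 10 members follows from that and says nothing about them. At an unadjusted p under 0.05 it found 1750 features (10.7%). DESeq2 called 337 of the 15279 it gave an adjusted p (2.21%), limma-voom 0 and limma-voom with sample weights 1 (0.00614%). The genotypes did not overlap for 2 of the 10 members, Pfkfb3 (lower) and Hk1 (higher), and for 17.9% of all tested features (9.43% higher and 8.47% lower in the knockout). The share of members is near that background, and since the members were chosen on this comparison nothing is read from it.

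The other bifunctional enzymes did not separate the genotypes. Pfkfb2, a form found in heart and many epithelia that is regulated by phosphorylation, measured 112.3, 130.5 and 133.5 CPM in the knockout and 127.7, 140.6 and 130.4 CPM in the wild type. These ranges overlap, and the log2 fold change was −0.08 ± 0.10 (SE). Pfkfb2 shares 1262 exon bases with Gm29427 on the same strand and 154 with Yod1 on the opposite strand, so its count, and the family shares that rest on it, are uncertain to that extent. Pfkfb4, a form described as hypoxia-inducible and abundant in testis, measured 20.7, 19.1 and 18.4 CPM in the knockout and 16.0, 23.4 and 15.2 CPM in the wild type. Wild-type replicate 2 was the highest and the other wild-type libraries the lowest of the 6, and the log2 fold change was 0.09 ± 0.19 (SE). It was −0.03 without wild-type replicate 3 and 0.31 without wild-type replicate 2, so its sign and size turned on single wild-type libraries. Pfkfb1, the form of liver and muscle, was near the detection limit at 1.54 to 2.53 CPM in the knockout and 2.30 to 2.85 CPM in the wild type.

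Pfkfb3 also made up a smaller share of the Pfkfb family in the knockout libraries. Per kilobase of merged exons, Pfkfb3 made up 24.3%, 20.5% and 21.4% of the summed level of Pfkfb2, Pfkfb3 and Pfkfb4 in the knockout and 28.6%, 27.3% and 31.2% in the wild type. Each knockout share was below each wild-type share, with means of 22.1 ± 1.97% and 29.1 ± 1.95% (SD, n = 3 each). Pfkfb2 held the largest share in every library, from 58.2% to 65.3%, and Pfkfb4 the smallest, from 10.2% to 16.3%. The difference in the Pfkfb3 share was −7.00 percentage points, and it lay between −8.11 and −5.94 points when any single library was left out. This share rests on the same libraries and counts as the level of Pfkfb3 and is no independent observation.

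**Figure D2:**
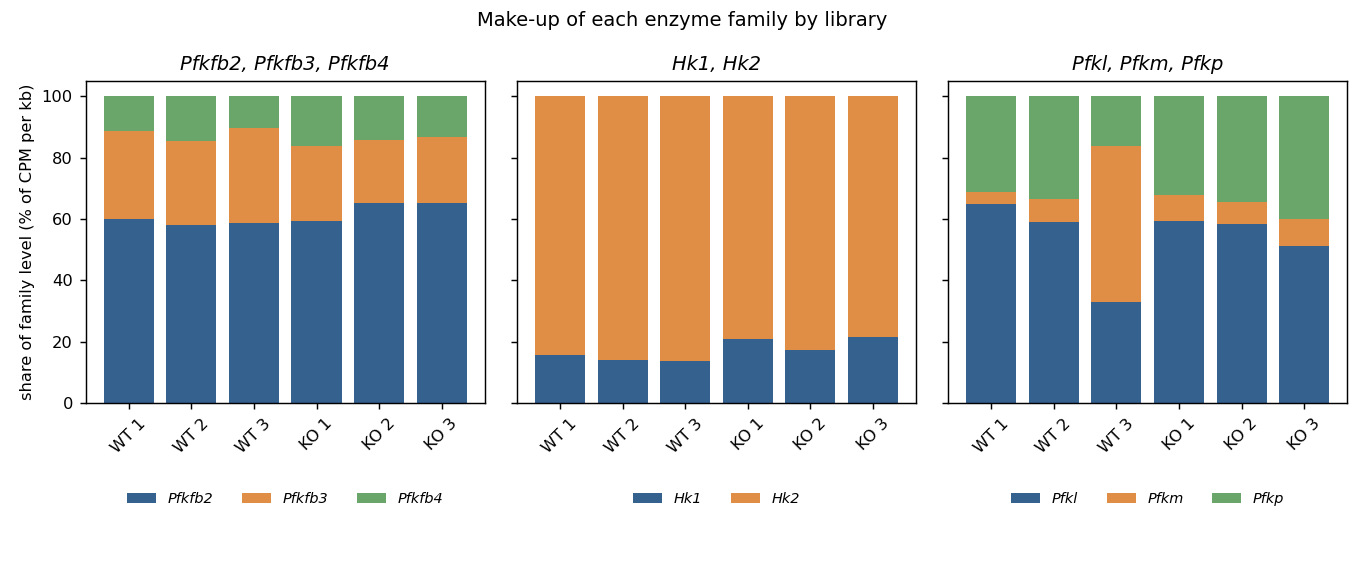
Share of each gene in the summed level of its family, in percent of CPM per kilobase of merged exons, for the 3 wild-type (WT) and 3 knockout (KO) libraries. The Pfkfb3 segment spans 20.5% to 24.3% in the knockout and 27.3% to 31.2% in the wild type, and Pfkm fills 50.9% of the phosphofructokinase bar in wild-type replicate 3.

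The fitted values of the hexokinases had opposite signs. Hk1, the form that most tissues express, measured 124, 104 and 119.7 CPM in the knockout and 80.8, 99.2 and 98.1 CPM in the wild type. Each knockout library was above each wild-type library, though knockout replicate 2 and wild-type replicate 2 were only 4.79 CPM apart. The log2 fold change was 0.32 ± 0.12 (SE), and 0.36 without wild-type replicate 3. Hk2, the inducible form typical of tumours and muscle, measured 327.3, 346.8 and 303.1 CPM in the knockout and 304.4, 421.1 and 426.7 CPM in the wild type. Wild-type replicates 2 and 3 were the highest, wild-type replicate 1 lay among the knockout libraries, and the log2 fold change was −0.24 ± 0.14 (SE). Per length, Hk1 made up 17.3% to 21.7% of the summed level of Hk1 and Hk2 in the knockout and 13.8% to 15.7% in the wild type, with no overlap. Hk1 shares 157 exon bases with Hk1os on the opposite strand, and whether the authors' counting used strand is not given in the sources used here.

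Among the phosphofructokinase subunits, the liver type Pfkl and the platelet type Pfkp made up most of the summed level per length in every library but wild-type replicate 3. Pfkl measured 106.4, 85.9 and 76.3 CPM in the knockout and 90.6, 83.1 and 114.5 CPM in the wild type. The ranges overlap, and the log2 fold change was −0.10 ± 0.17 (SE). Pfkp, whose protein is the one linked to TRIM21 in human tumour cells, measured 115, 102 and 119 CPM in the knockout and 87.2, 94.6 and 113 CPM in the wild type. The ranges overlap only through wild-type replicate 3, and the log2 fold change was 0.19 ± 0.12 (SE). Without that library it was 0.30 ± 0.11 (SE), and the genotypes did not overlap. Pfkp shares 748 exon bases with Pitrm1 on the opposite strand, so part of its count may belong to that gene.

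Pfkm, the muscle type subunit, was low in 5 libraries and high in 1. It measured 7.64, 5.33 and 6.72 CPM in the knockout and 2.85, 5.15 and 88.6 CPM in the wild type. Wild-type replicate 3 was 11.6 times above the next highest library. With all libraries the log2 fold change was −2.29 ± 1.19 (SE), and without wild-type replicate 3 it was 0.71 ± 0.34 (SE), so its direction was set by that library. In the 5 other libraries Pfkm made up 4.08% to 9.01% of the summed subunit level per length, and in wild-type replicate 3 it made up 50.9%. Pfkm shares 341 exon bases with Gm26513 on the same strand.

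The same library was high in the other glycolysis genes typical of skeletal muscle. Pgam2, the muscle phosphoglycerate mutase, measured 26.6 CPM in wild-type replicate 3 and 0.609 to 1.29 CPM elsewhere, and Eno3, the muscle enolase, measured 123.5 CPM against 9.73 to 18.9 CPM. Slc2a4, the insulin-responsive transporter of muscle and fat, measured 20.5 CPM against 1.48 to 7.14 CPM. The skeletal muscle markers Ckm (256 CPM there and at most 0.846 CPM elsewhere) and Myh4 (1418 CPM and at most 4.81 CPM) gave the same picture. Pfkfb3 in that library was 1.05 times the next highest library and Hk2 was 1.01 times, so these members did not stand apart there. Ldha was 1.18 times the next highest. The part of skeletal muscle RNA in the smaller differences was not tested.

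**Figure D3:**
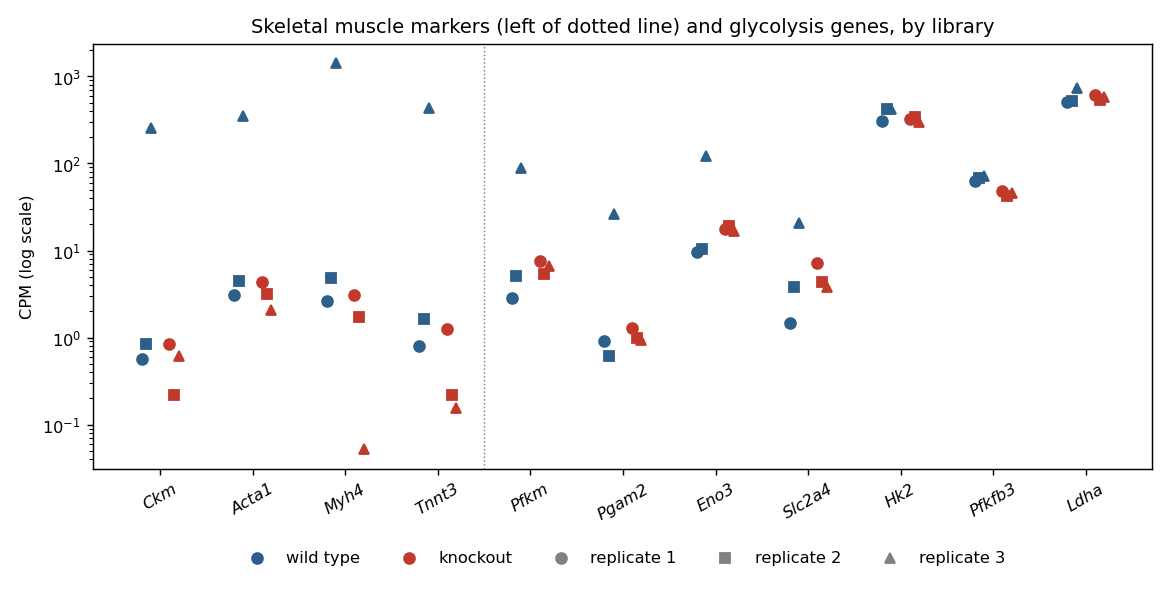
Level in CPM, on a log scale, of 4 skeletal muscle markers (left of the dotted line) and 7 genes of glycolysis and sugar transport in each library, with blue for wild type, red for knockout and one marker shape per replicate. The blue triangle, wild-type replicate 3, lies far above the other libraries for the markers and for Pfkm, Pgam2, Eno3 and Slc2a4 (88.6, 26.6, 123.5 and 20.5 CPM), and just above the next point for Hk2 and Pfkfb3 (1.01 and 1.05 times).

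The genes at the entry and the exit of the route overlapped between genotypes. Slc2a1, the glucose transporter of most proliferating cells, measured 88.5, 91.2 and 112.7 CPM in the knockout and 84.2, 92.4 and 100.6 CPM in the wild type. Knockout replicate 3 was the highest, the others lay close together, and the log2 fold change was 0.08 ± 0.12 (SE). It was −0.04 without knockout replicate 3. Ldha measured 618.0, 539.1 and 580.5 CPM in the knockout and 506.3, 520.0 and 731.0 CPM in the wild type. Wild-type replicate 3 was the highest and the other wild-type libraries the lowest, so the log2 fold change was −0.02 ± 0.16 (SE) with all libraries and 0.17 ± 0.10 (SE) without it. Ldha has a pseudogene named after it in the annotation, Ldha-ps2, so its count may include reads that map to both.

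**Figure D4:**
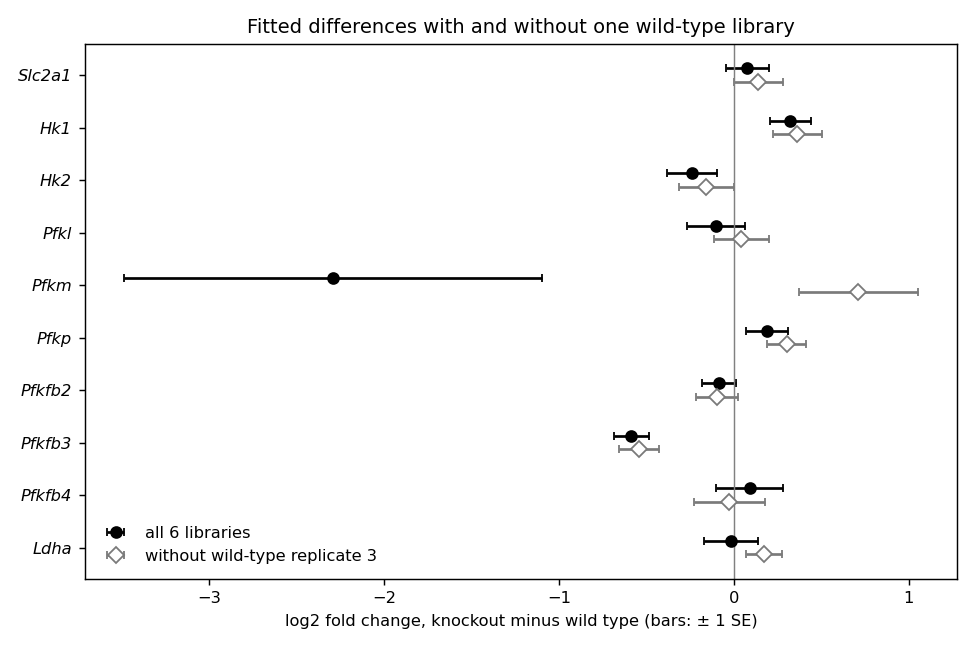
Fitted log2 fold change, knockout minus wild type, of each gene with all 6 libraries (filled) and without wild-type replicate 3 (open), with bars of 1 standard error. Pfkfb3 stays near −0.59 and −0.54, whereas Pfkm moves from −2.29 to 0.71.

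Leaving out wild-type replicate 3 turned the sign of 4 of the 10 members, Pfkfb4, Pfkl, Pfkm and Ldha, and Pfkfb3, Pfkfb2, Hk1, Hk2, Pfkp and Slc2a1 kept theirs. Without it the genotypes did not overlap for 5 members, Pfkfb3, Hk1, Pfkm, Pfkp and Ldha, against 30.3% of 16373 tested features. There edgeR called 1 of these features (0.00611%) and 0 members, from which nothing is read about the members. Leaving out knockout replicate 3 turned Pfkl and Slc2a1, and leaving out knockout replicate 2 turned Ldha. Under the 3 other scalings all 10 members kept their sign.

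Levels were compared between genes only per kilobase of merged exons. Ldha was the most abundant at 153.0 to 220.8 CPM per kb over the 6 libraries, followed by Hk2 at 50.8 to 71.5 and Slc2a1 at 24.02 to 32.2 CPM per kb, and these ranges do not overlap. Pfkfb2 (15.5 to 19.4), Pfkl (11.4 to 17.2) and Hk1 (9.47 to 14.5 CPM per kb) came next, each overlapping its neighbour. Pfkp (6.51 to 8.90) and Pfkfb3 (5.66 to 9.56 CPM per kb) overlapped with each other. Pfkfb4 was at 3.13 to 4.81 CPM per kb. Pfkm was lowest in the 5 libraries other than wild-type replicate 3, at 0.854 to 2.29 CPM per kb, and stood at 26.5 in that one. With the longest transcript in place of merged exons, Slc2a1 and Pfkfb2 were nearly level at means of 29.1 and 28.7 CPM per kb.

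Beside the members, 8 lists of other genes of glucose metabolism were examined, with 96 genes of which 93 were tested. None of these genes passed edgeR's test over all 16281 features, so the values below describe the libraries. Up to 4 genes with the smallest unadjusted p of each list are named, and their adjusted p (edgeR, over all features) lay between 0.322 and 0.701. The median log2 fold change of all tested features was −0.01. Each count of genes without overlap below stands against 9.43% of all tested features higher and 8.47% lower without overlap. The lists are short and were not tested as sets, so nothing is read from these counts.

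Sugar sensing was the list with the smallest p. Txnip, which encodes a protein that is induced by glucose and restrains its uptake, measured 767.4, 625.9 and 734.5 CPM in the knockout and 353.5, 445.8 and 463.4 CPM in the wild type. The genotypes were far apart, with a log2 fold change of 0.75 ± 0.14 (SE; edgeR adjusted p = 0.322), and each of 3 knockout libraries lay above each wild-type library. DESeq2 called Txnip at an adjusted p of 0.000303, and it called 2.21% of all features to which it gave an adjusted p. Limma-voom, with or without sample weights, called no gene of this list. Its relative Arrdc4, also glucose-induced, had 0.47 with overlapping groups, and Mlx, the partner of the glucose-responsive factors encoded by Mlxipl and Mlxip, had 0.34 without overlap. Mlxipl itself was at −0.0041 and Mlxip at 0.10. Myc, a transcription factor that drives glycolytic genes, had −0.23. Of the 13 genes, which include the AMPK subunits, 9 had positive values, 2 were higher and 0 lower without overlap, and the median was 0.06.

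Among the regulators of the hypoxia response, Epas1 and Hif3a had higher values in the knockout without overlap. Epas1, encoding the factor HIF-2 alpha, measured 172.0, 161.1 and 206.2 CPM in the knockout and 94.3, 120.2 and 124.0 CPM in the wild type. All knockout libraries were above all wild-type libraries, with a log2 fold change of 0.67 ± 0.14 (SE, edgeR adjusted p = 0.322). DESeq2 called Epas1 at an adjusted p of 0.00721, and limma-voom, with or without sample weights, called no gene of this list. Epas1 and Txnip were the only genes of the glucose metabolism lists that DESeq2 called, against 2.21% of all features. Hif3a, a related factor, had 0.88 (22.8 ± 5.92 against 12.4 ± 2.83 CPM, SD, n = 3), also without overlap. Hif1a was at −0.18, Arnt at 0.12 and Vhl at −0.14, and the median over 9 genes was −0.03. Vhl has a pseudogene named after it in the annotation, Vhl-ps1, so its count is uncertain. Epas1 is also abundant in endothelium, and 3 of 7 endothelial markers were higher in the knockout without overlap, with a summed level of 243.6 to 328.8 CPM in the knockout and 216.7 to 272.3 CPM in the wild type. Their part in the Epas1 difference was not tested.

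Hypoxia targets other than the members lay mostly near 0. Of 12 genes, 4 had positive and 8 negative values, with a median of −0.10, and only Adm stood apart between the genotypes. Adm, encoding the vasodilator adrenomedullin, measured 4.71, 5.27 and 5.48 CPM in the knockout and 9.63, 7.28 and 9.27 CPM in the wild type. Its log2 fold change was −0.76 ± 0.20 (SE; edgeR adjusted p = 0.345). Vegfa, the main angiogenic growth factor, had 0.13, Higd1a 0.26 and P4ha2 −0.25, each with overlapping groups.

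The other glycolysis enzymes had values on both sides of 0. The list of 20 had a median of −0.04, with 9 positive and 11 negative values, and without wild-type replicate 3 the median was 0.17 with 17 positive and 3 negative. Of the abundant enzymes, Gapdh had −0.13, Pkm −0.18, Aldoa −0.21, Eno1 −0.10, Tpi1 −0.12, Pgk1 −0.04, Pgam1 −0.04 and Gpi1 0.09, all overlapping. Without wild-type replicate 3 these values were, in the same order, 0.06, −0.07, 0.26, 0.02, 0.06, 0.09, 0.06 and 0.21. Aldoa and Gpi1 were then higher without overlap, against 30.3% of all tested features without overlap in either direction. With all 6 libraries, 4 of the 20 were higher and 0 lower in the knockout without overlap, against 9.43% and 8.47% of all tested features. Among them, the hexokinase-related gene Hkdc1 (1.85 ± 0.725 against 0.572 ± 0.224 CPM, SD, n = 3) and Eno2, the neuronal enolase, with a log2 fold change of 0.55, were low in every library. Gapdh, Pgk1, Pgam1 and Aldoa have pseudogenes named after them in the annotation, so their counts are uncertain. Pseudogenes under other names were not searched for, so the other enzymes may have them too.

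Among the transporters, those of lactate and of sodium-coupled glucose uptake had the smallest p. Slc16a3, the lactate exporter of glycolytic cells, measured 35.6, 40.2 and 26.1 CPM in the knockout and 66.8, 36.9 and 62.7 CPM in the wild type. Only wild-type replicate 2 lay within the knockout range, and the log2 fold change was −0.71 ± 0.26 (SE; edgeR adjusted p = 0.418). Slc16a1, a carrier of lactate and butyrate in colonocytes, had 0.50 (178.6 ± 27.0 against 125.9 ± 28.2 CPM) and Slc5a1, the sodium-coupled glucose transporter, had 0.34 (78.4 ± 1.66 against 62.1 ± 9.84 CPM, SD, n = 3), both higher without overlap. Slc16a7 had 0.66 with overlapping groups. Over 11 tested genes the median was 0.27, with 3 higher and 0 lower without overlap.

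In the gluconeogenesis list, 2 of 7 tested genes were higher (Pck1 and Pcx) and 1 lower (Fbp1) in the knockout without overlap, and the median log2 fold change was 0.33. Pck1, which encodes an enzyme of glucose synthesis, measured 44.5, 34.7 and 61.0 CPM in the knockout and 1.98, 19.6 and 6.60 CPM in the wild type. Its log2 fold change was 2.31 ± 0.71 (SE, edgeR adjusted p = 0.374). All knockout libraries were above all wild-type libraries, which themselves varied widely. Fbp1, a fructose bisphosphatase, was under 1 CPM in every library and lower in the knockout, and Pcx, the pyruvate carboxylase gene, and Pck2 had 0.33 and 0.34. Of 13 genes of pyruvate entry into mitochondria, 1 was higher (Pdk3) and 1 lower (Pdhx) without overlap, with a median of 0.07. Pdk3, a kinase that restrains pyruvate dehydrogenase, had 0.36 without overlap (24.3 ± 1.27 against 18.9 ± 1.19 CPM, SD, n = 3). Mpc1, a mitochondrial pyruvate carrier subunit, had 0.19, and Dld and Pdhx of the pyruvate dehydrogenase complex had 0.13 and −0.13. All 8 genes of the pentose phosphate list had negative values, with a median of −0.13 and a smallest value of −0.23 for Tigar, which lowers the same sugar bisphosphate that Pfkfb3 makes. Taldo1, Pgd and Rpe had −0.19, −0.19 and −0.15, and without wild-type replicate 3, 3 of the 8 genes had positive values.

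**Figure D5:**
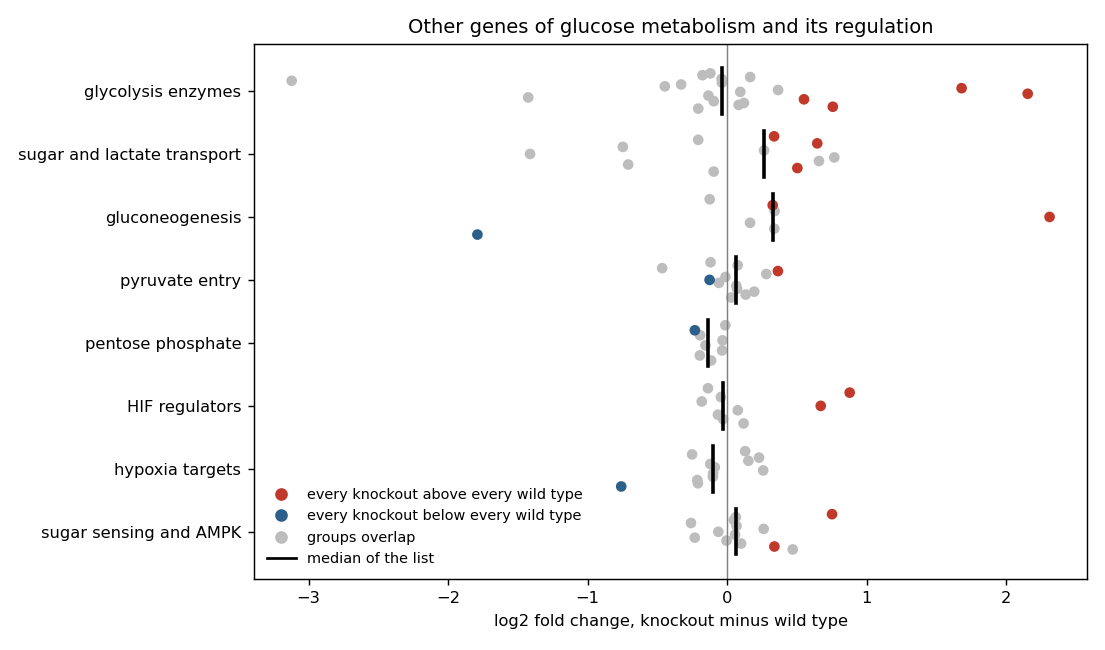
Log2 fold change, knockout minus wild type, of each tested gene in 8 lists, coloured by whether the genotypes overlap, with a black line at the median of each list. The medians lie between −0.13 and 0.33, and Txnip (0.75), Epas1 (0.67) and Pck1 (2.31) are among the red points to the right.

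Several lists of cell type markers had higher values in the knockout, and each count of genes without overlap below stands against 9.43% of all tested features that were higher without overlap. Of the 7 tested markers of mature colonocytes, 5 were higher, with a summed level of 2236 to 4396 CPM in the knockout and 672.2 to 1883 CPM in the wild type. Most of each sum was Muc3, at 1767 to 3892 CPM in the knockout and 581.3 to 1660 CPM in the wild type. Goblet cell markers were higher for 4 of 7 genes, with sums of 7501 to 12876 and 1939.8 to 7539 CPM that just overlap. The largest part of each goblet sum was Muc2, at 3597 to 6289 CPM in the knockout and 843.9 to 4812 CPM in the wild type. Among lymphocyte and plasma cell markers, 2 of 8 were higher, Jchain and Mzb1, and the sums were apart at 880.5 to 3032 and 193.4 to 594.9 CPM. For macrophages it was 6 of 8 genes, with 658.4 to 869.7 and 554.0 to 630.7 CPM, and for smooth muscle 5 of 9 genes, with 876.9 to 1409.6 and 327.4 to 808.2 CPM. Fibroblast markers were higher for 1 of 7 genes, though all 7 had positive values, with sums of 1598 to 2301 and 1115 to 1700.2 CPM. Neutrophil markers did not share this direction: 3 of 8 genes had positive and 5 negative values, with a median log2 fold change of −0.19. Only Ly6g, 1 of the 8, was higher without overlap, and the sums overlapped at 141.1 to 274.6 and 122.4 to 266.4 CPM. Without wild-type replicate 3, 7 of the 8 had negative values. S100a8 and S100a9 were then lower without overlap, against 30.3% of all tested features without overlap in either direction. Epithelial and red blood cell markers were apart for 0 of 7 and 0 of 4 genes. The part of cell make-up in the level of Pfkfb3 was not tested.

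The genes whose pattern was most like that of Pfkfb3 were Kcne3, Muc20, Ccdc3, Itpripl1 and Olr1. Likeness was Pearson's r of log2 CPM over the 6 libraries, ranked among 4822 features that vary, and it was 0.977, 0.960, 0.957, 0.957 and 0.954. All 5 genes were lower in the knockout, and r over 6 libraries in 2 groups mostly follows the group difference. Kcne3, a potassium channel subunit of crypt epithelium, measured 192.0, 168.7 and 179.3 CPM in the knockout and 229.2, 262.8 and 244.6 CPM in the wild type. With the group means removed, the most alike were Slc27a4, Sgsm2, Fam187b, Adtrp and Ears2 (r from 0.987 to 0.991). The top 5 of the 2 rankings share no gene. Slc27a4, Sgsm2 and Adtrp had positive log2 fold changes (0.39, 0.38 and 0.85), opposite to Pfkfb3, and Fam187b and Ears2 negative ones (−0.77 and −0.36). These correlations are descriptions of 6 libraries that share scaling and genotype.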

How the data were processed

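For each of the 6 libraries the authors deposited integer counts of reads by gene symbol. Named in the submitters' processing notes are mm10, TopHat2, edgeR and limma, with no version or role stated. What counted the reads, with or without strand, and on which annotation, is not given in the sources used here. Counts were analysed in R 4.3.3 with edgeR 4.0.16: TMM scaling (factors 0.977 to 1.02), filterByExpr (16281 features kept), and the two-sided quasi-likelihood test with genotype as the only term and Benjamini-Hochberg adjustment over all kept features. CPM are relative to the TMM-scaled library size, and the standard error is the log2 fold change divided by the square root of F. Pairs of libraries of 1 genotype differed by more than sampling noise (chi-square per degree of freedom 21.7 to 107), and all were kept as replicates, as labelled. This cannot show whether they came from separate mice or pooled tumours. Knockout replicate 2 and wild-type replicate 2 differed less (23.7) than any pair of wild-type libraries (70.3 to 107). Totals differ between genotypes, which limits the precision of genes under 1 CPM most. Positions and exon lengths come from GENCODE M21, in which 24919 symbols were found, and promoters from RefSeq. Alternatives were DESeq2 1.42.0, limma-voom (limma 3.58.1) with and without sample weights, 3 scalings, 2 filters, a term for the replicate number, and omission of single libraries.

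The members, gene lists and tests were chosen with earlier results of these data known. Named are all 10 members, up to 4 genes of each list with the smallest unadjusted p (some are not reported here), Trim21, and the 5 features most like Pfkfb3 among those whose log2 CPM had a mean of 1 or more and an SD of 0.25 or more, without predicted, small RNA and sex-linked genes. Further genes of the lists (Pfkfb1, Eno3, Slc2a4, Eno2, Hif1a, Mlxipl, Mlxip and the abundant enzymes) were named after their values were seen.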

Additional observations from a re-analysis of the deposited data

How the results depend on the processing

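The log2 fold change of Pfkfb3 (−0.59) kept its direction in all 15 alternatives. It was −0.65 to −0.58 under other tools, scalings, filters and the replicate block, and −0.64 to −0.54 when single libraries were left out. Pfkfb3 was chosen for this difference and its groups did not overlap. Its sign could therefore hardly turn on the same counts, and the kept direction of Pfkfb3 is no further support. Its share of the Pfkfb level per length moved from −7.00 to −6.95 percentage points with the longest transcript, and lay between −8.11 and −5.94 without single libraries. The number of features past the test was 0 in either direction with edgeR. DESeq2 gave 246 higher and 91 lower, and limma-voom with sample weights gave 1 lower. Without single libraries edgeR gave 0 to 1 higher and 0 to 0 lower, the 1 without wild-type replicate 3. Members without overlap numbered 2 under the other scalings, and 2 to 5 without single libraries, the 5 without wild-type replicate 3, where with 2 wild-type libraries no overlap is easier to reach. Leaving out that library also took Pfkm from −2.29 to 0.71 and the median of the HIF regulators from −0.03 to 0.09. With the replicate number as a block edgeR called 0 features, Pfkfb3 had −0.59, Pfkm −0.64 and Ldha 0.0025. Ldha was also of opposite sign with limma-voom, at 0.0034. Libraries of the same number did not deviate together (correlations of −0.15, −0.17 and −0.07). With 3 libraries per genotype, and deviations taken from their own means, these correlations cannot exclude a pairing. Of 436 recomputed values, 427 moved by less than the spread between replicates or, for counts, within 1.5 times. This is a loose measure, because leaving out 1 of 3 libraries seldom moves a value by that much. It also counted Pfkm at −0.64 with the replicate block as unmoved, since the spread of Pfkm was 1.87. The count is therefore no measure of stability. Depth limits genes such as Fbp1, which was under 1 CPM.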
